A study of Mus musculus with 24 samples.

Results

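The messenger RNA levels of 9 genes were examined in mouse bone marrow-derived macrophages, namely 8 genes for enzymes of the tricarboxylic acid (TCA) cycle and its isocitrate branch points (Cs, Idh1, Idh2, Idh3a, Ogdh, Suclg1, Fh1 and Mdh2) and Acod1, whose product makes itaconate. The genes were named as a group, with earlier results of these data known, and their symbols were matched to the gene identifiers of the count table. They are 9 of 56884 genes in that table, and all 9 were among the 13679 genes with enough reads to be tested.

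In the TCA cycle, citrate synthase (Cs) joins acetyl-CoA to oxaloacetate, isocitrate dehydrogenase 3 (Idh3a is its catalytic subunit) and the 2-oxoglutarate dehydrogenase complex (Ogdh) release carbon dioxide and make NADH, succinyl-CoA ligase (Suclg1) yields succinate, and fumarase (Fh1) and malate dehydrogenase (Mdh2) close the cycle. Idh1 in the cytosol and Idh2 in mitochondria convert isocitrate with NADP in place of NAD. Acod1 takes cis-aconitate out of the cycle to make itaconate, and is best known as a gene induced in macrophages by inflammatory stimuli, while macrophages activated by IL-4 are known for an intact cycle and high respiration.

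Macrophages were grown with M-CSF from the marrow of wild-type C57BL/6J female mice aged 9 weeks, and polyadenylated RNA was sequenced after 24 h in 6 groups of 4 libraries. Each group held 1 library from each of mice 1, 2, 4 and 5, so that the replicates within a group were separate animals. Naive cells received neither IL-4 nor IL-13, the cytokines meant below, and all the other groups received both at 20 ng/ml each. These were given without an inhibitor or after 1 h of pretreatment with an inhibitor that was then kept in the medium. The inhibitors were tunicamycin at 5 µg/ml, which blocks N-glycosylation and causes stress of the endoplasmic reticulum, Sal003 at 10 µM, which blocks dephosphorylation of the translation factor eIF2α, and 1 µM oligomycin, an inhibitor of the ATP synthase of mitochondria, without or with 1 µM ISRIB, which blunts the integrated stress response downstream of eIF2α. The labels of both oligomycin groups contradict each other: the titles and treatment entries assign ISRIB to the libraries named Oligo, while the library names and replicate tags assign it to those named Oli_ISR. The groups are therefore called the Oligo libraries and the Oli_ISR libraries according to their library names, and which of them received ISRIB was not judged from their values.

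Reads assigned to genes numbered 16238727 to 26725278 per library, with a median of 18999998. The 7 macrophage markers checked were expressed in every group, with summed levels of 30600 to 36300 CPM (read counts scaled to a common library size) in naive cells and 8720 to 17600 CPM in the other groups. Lyz2 was the largest part, at 23600 CPM in naive cells and 5980 CPM with IL-4/IL-13, and the markers did not move together. Cd68 was at 1200 and 1230 CPM in these groups. With tunicamycin Adgre1 was at 6680 CPM against 3490 CPM in naive cells, and Csf1r at 821 against 4580 CPM. Markers of T cells, NK cells and erythroid cells did not exceed 3 counts in any library, whereas the sum of 7 neutrophil genes ranged from 32.2 to 62.8 CPM in naive cells and from 0.0513 to 0.286 CPM with tunicamycin, with Ly6g at or under 3 counts throughout. The sum of 3 fibroblast genes was 8.84 to 67.4 CPM in naive cells, 6.01 to 40.4 CPM with IL-4/IL-13 and 1.17 to 8.63 CPM with tunicamycin, and that of 4 dendritic cell genes 3.91 to 7.16, 5.69 to 7.41 and 0.964 to 1.99 CPM. In the same groups, the sum of 3 B cell genes was 0.322 to 1.02, 0.105 to 1.23 and 0.0476 to 0.255 CPM. That of 3 mast cell and basophil genes was 0.322 to 0.634, 0.501 to 1.21 and 0.103 to 0.408 CPM. The part of such residual cells in the results was not tested. In these bulk libraries, a smaller number of cells of a type and less RNA per cell cannot be told apart. The naive library of mouse 2 differed most from its group, with a chi-square per gene of 27.3 to 35.9 against the other naive libraries, while those differed from each other by 6.05 to 7.98. Without it, in a fit chosen after the data were seen for the inhibitor groups, all 9 calls between IL-4/IL-13 and naive cells held, and the calls against naive cells that changed are named where they are given. Libraries also differed within other groups, with a chi-square per gene of 22 between mice 4 and 5 with Sal003. In the Oli_ISR libraries it was 12.9 to 18.9 between mice 1 or 4 and mice 2 or 5, 6.01 between mice 1 and 4, and 3.2 between mice 2 and 5.

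In GRCm39, the build used for counting, Cs lies at chr10:128172837-128198363, Idh1 at chr1:65196781-65225721, Idh2 at chr7:79741431-79765535, Idh3a at chr9:54493575-54514730, Ogdh at chr11:6241551-6309233, Suclg1 at chr6:73225365-73253894, Fh1 at chr1:175425290-175453205, Mdh2 at chr5:135807292-135820882 and Acod1 at chr14:103284413-103294009. Reads counted over exons bear on the whole of each gene, coding sequence and untranslated parts alike. Idh1, Suclg1 and Mdh2 overlap no exon of another gene. Exons of genes on the opposite strand cover 29.4% of the Idh2 exons (Zfp710), 22.9% of those of Idh3a (Acsbg1), 18.2% of those of Cs (Coq10a and Gm56959), 9.42% of those of Acod1 (Gm41235), 5.34% of those of Ogdh (Gm72270) and 1.87% of those of Fh1 (Kmo). Because the sources used here give no strand setting and no rule for reads over overlapping genes, counts from the shared stretches are uncertain. Reads there could have been left out or given to either gene, which was not tested. Transcripts of other genes, on either strand, are near identical to 42.8% of the canonical transcript of Idh3a (Acsbg1), 9.93% of Cs, 9.68% of Acod1 and 7.34% of Ogdh. For Idh3a, Cs and Acod1 the matched genes are the opposite-strand partners named above. Their shares therefore restate that overlap and do not show a separate similarity. The share is 3.85% for Idh1, 1.57% for Fh1 and 0 for Idh2, Suclg1 and Mdh2. Positions and overlaps are those of GENCODE M39, which can differ from the annotation used for counting.

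Upstream sequence was taken from RefSeq promoter windows of GRCm38.p6, a different build from the gene positions above, which held windows for 8 of the 9 members and none for Idh3a. Each window of 250 bases before to 50 bases after a start was searched on both strands for 5 motifs. The 8-letter cAMP response element TGACGTCA was found before the starts of Mdh2 and Ogdh, and in 1.79% of all 32851 windows. The STAT6 site TTCNNNNGAA was found before Fh1 and in 6.95% of all windows, and the E-box CACGTG before other starts of Ogdh and in 7.15%. The composite C/EBP-ATF site TGATGNAA (3.97% of all windows) and the ERR site TCAAGGTCA (0.423%) matched no member window. These matches describe letters only. The 250 bases before the starts of Mdh2 (chr5:135778399-135778648, plus strand), Ogdh (chr11:6291347-6291596, plus strand) and Fh1 (chr1:175625636-175625885, minus strand) are printed 5′ to 3′. Matched letters are in capitals, and these genes were chosen because their windows hold a match. Cs, Idh1, Idh2 and Suclg1 also rose with the cytokines, and their windows held no match. The bases before Acod1 (chr14:103046762-103047011, plus strand), which fell with the cytokines, are printed beside them and hold no match either. Whether the matches bear on the levels was not tested.
Mdh2: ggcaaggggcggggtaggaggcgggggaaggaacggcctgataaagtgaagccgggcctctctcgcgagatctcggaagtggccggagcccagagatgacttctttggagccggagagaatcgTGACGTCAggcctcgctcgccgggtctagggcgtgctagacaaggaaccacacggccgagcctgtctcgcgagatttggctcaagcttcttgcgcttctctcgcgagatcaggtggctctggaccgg
Ogdh: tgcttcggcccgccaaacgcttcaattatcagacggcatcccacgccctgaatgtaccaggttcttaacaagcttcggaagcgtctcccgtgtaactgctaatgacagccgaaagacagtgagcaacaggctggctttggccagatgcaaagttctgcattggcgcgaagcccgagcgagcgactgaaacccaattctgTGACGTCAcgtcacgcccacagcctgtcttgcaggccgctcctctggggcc
Fh1: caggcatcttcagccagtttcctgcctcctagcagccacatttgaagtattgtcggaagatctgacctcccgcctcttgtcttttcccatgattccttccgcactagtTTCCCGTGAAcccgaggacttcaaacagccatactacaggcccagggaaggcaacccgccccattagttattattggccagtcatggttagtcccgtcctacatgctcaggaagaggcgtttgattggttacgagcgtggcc
Acod1: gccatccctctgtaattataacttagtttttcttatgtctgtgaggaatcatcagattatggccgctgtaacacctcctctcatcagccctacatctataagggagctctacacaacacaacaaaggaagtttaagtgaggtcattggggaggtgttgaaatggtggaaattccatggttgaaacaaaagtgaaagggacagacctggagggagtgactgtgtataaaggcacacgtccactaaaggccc

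**Figure D1:**
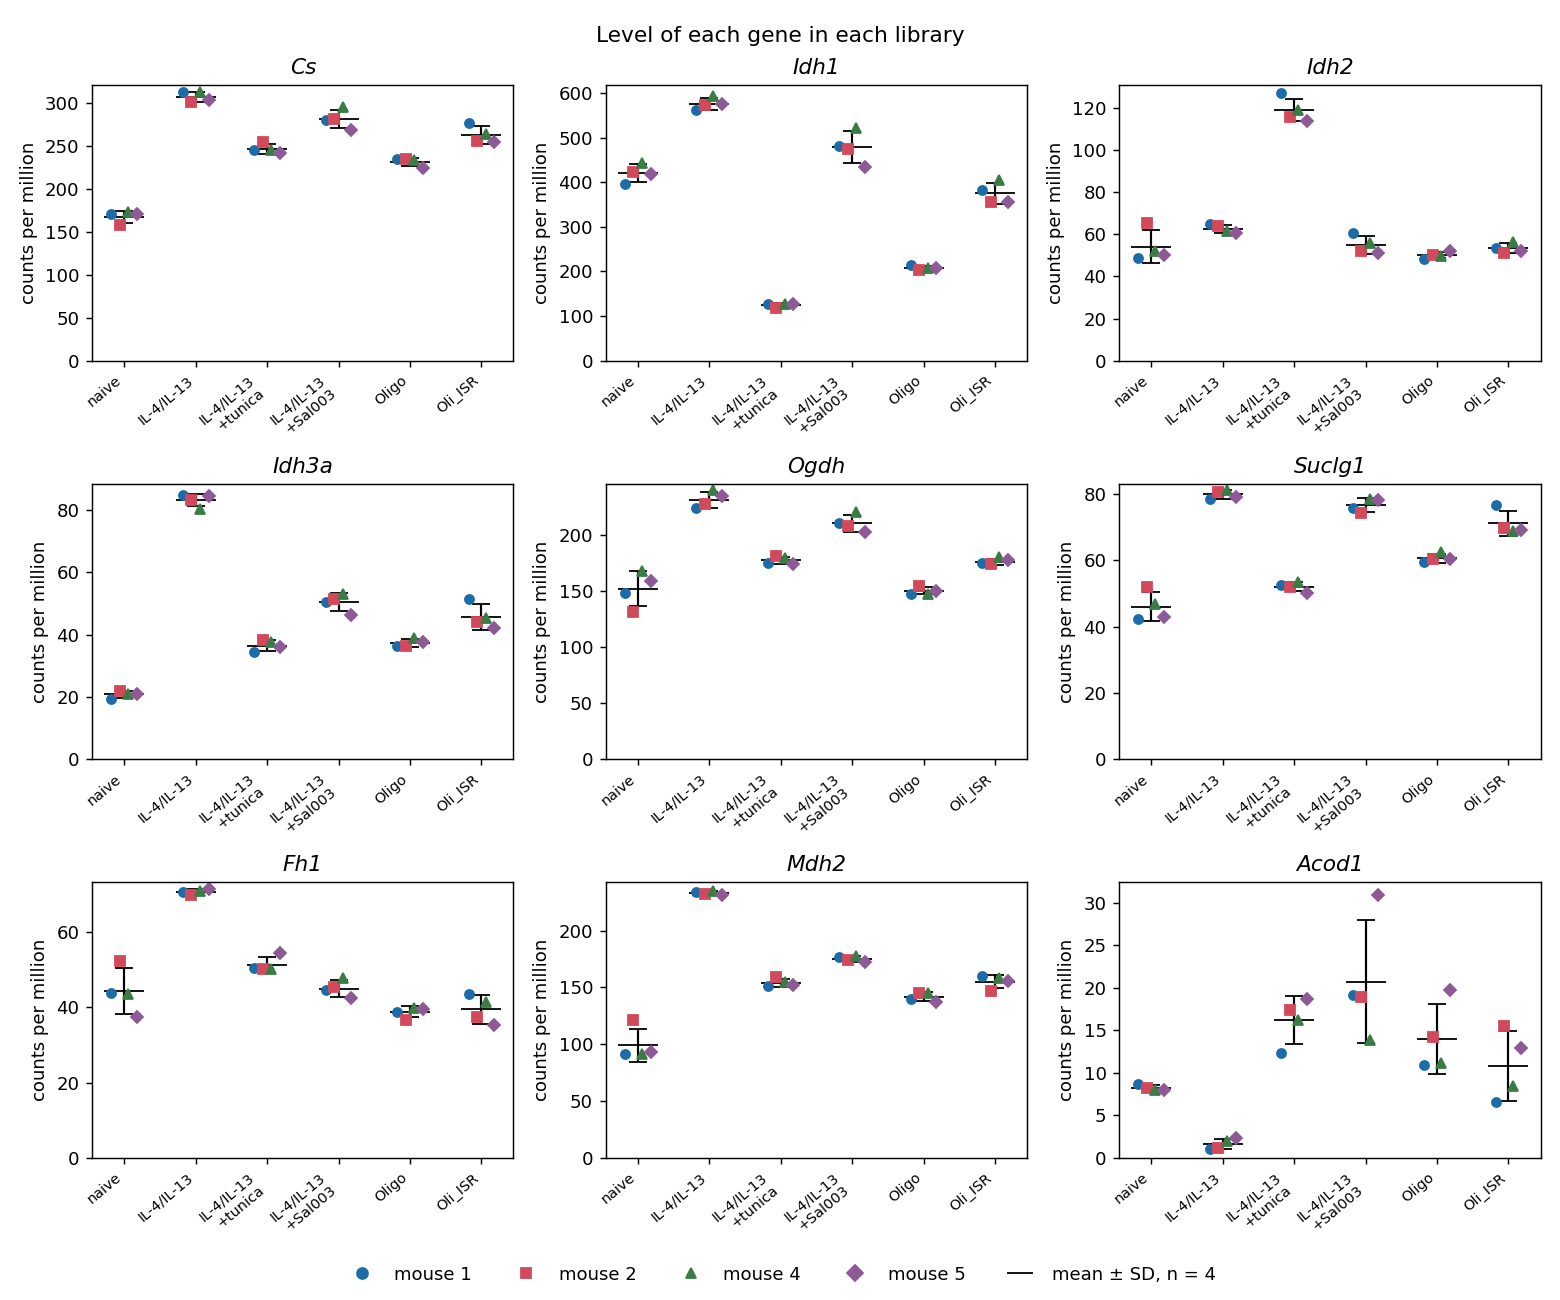
Level of each of the 9 genes in CPM (vertical axis, from 0) in each library of the 6 groups (horizontal axis), with symbols for mice 1, 2, 4 and 5 and bars for the mean ± SD of 4 libraries. Of the 9 genes, 7 have their highest group mean with IL-4/IL-13 alone, Idh2 is highest with tunicamycin, and Acod1 is lowest with IL-4/IL-13 alone.

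The comparison of IL-4/IL-13 with naive cells asks how alternative activation sets the expression of the cycle. All 8 TCA genes were higher with the cytokines and Acod1 was lower. By the quasi-likelihood test of edgeR, with Benjamini-Hochberg adjustment over all genes tested, 8 of the 9 members were called higher, against 30.1% of all genes tested, and 1 was called lower, against 30.4%. With the additional requirement of a 2.5-fold change, 2 members were called, Idh3a and Acod1, and 11.5% of all genes. The median log2 change of the 8 enzymes was 0.74, and that of all genes tested was -0.023.

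Idh3a, the catalytic subunit of the NAD-dependent enzyme, changed most among the enzymes. Its level was 19.3, 21.9, 21.1 and 20.9 CPM in naive cells of mice 1, 2, 4 and 5, and 84.7, 83.1, 80.4 and 84.6 CPM with IL-4/IL-13. All the cytokine libraries lay far above all the naive ones, at 83.2 ± 1.99 against 20.8 ± 1.1 CPM (SD, n = 4 each), a log2 change of 2.00 (SE 0.058, edgeR adjusted p = 1.6e-19). Acsbg1, whose exons overlap those of Idh3a, was at 1.7 CPM with IL-4/IL-13 and at 0.208 CPM in naive cells.

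Mdh2, which regenerates oxaloacetate, followed. It measured 91, 121, 91.6 and 93.2 CPM in naive cells and 234, 232, 235 and 231 CPM with the cytokines. The groups did not overlap, although naive mouse 2 stood above the other naive libraries, and the log2 change was 1.23 (SE 0.061, edgeR adjusted p = 4.9e-15) with that library and 1.35 without it. Cs, which admits carbon to the cycle, rose from 158 to 173 CPM in naive cells to 301 to 312 CPM (log2 change 0.88, SE 0.04, edgeR adjusted p = 9.5e-16). Suclg1, the alpha subunit of succinyl-CoA ligase, rose from 42.4 to 51.9 CPM to 78.4 to 81.1 CPM (log2 change 0.80, SE 0.05, edgeR adjusted p = 7.4e-13). Neither gene's groups overlapped. Without naive mouse 2 the log2 changes were 0.86 for Cs, 0.87 for Suclg1 and 2.04 for Idh3a.

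Fh1 measured 43.8, 52.3, 43.5 and 37.3 CPM in naive cells and 70.5, 69.6, 70.7 and 71.3 CPM with IL-4/IL-13. The cytokine libraries lay close together and above every naive library, with a log2 change of 0.67 (SE 0.072, edgeR adjusted p = 1e-08), or 0.78 without naive mouse 2. Ogdh, the decarboxylating subunit of its complex, rose from 131 to 168 CPM to 224 to 240 CPM (log2 change 0.61, SE 0.051, edgeR adjusted p = 1.7e-10), or by 0.56 without that library.

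The NADP-dependent enzymes changed least. Idh1 measured 396, 424, 444 and 418 CPM in naive cells and 562, 574, 595 and 575 CPM with the cytokines, groups that did not overlap (log2 change 0.45, or 0.47 without naive mouse 2, SE 0.051, edgeR adjusted p = 2.3e-08). Idh2 measured 48.7, 65.6, 52.2 and 50.2 CPM in naive cells and 64.7, 64, 61.5 and 60.7 CPM with the cytokines. These groups overlapped, because naive mouse 2 exceeded every cytokine library, and Idh2 was higher with the cytokines in 3 of 4 mice (log2 change 0.21, SE 0.07, edgeR adjusted p = 0.01). The call of Idh2 was lost without the naive library of mouse 1 (edgeR adjusted p = 0.053), without mouse 1 (0.1), without mouse 4 (0.059) and in a fit of these groups alone (0.062), whereas the log2 change without naive mouse 2 was 0.33, over 1.5 times as large (edgeR adjusted p = 1.1e-05).

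Acod1 moved the other way. It measured 8.64, 8.24, 7.94 and 8 CPM in naive cells, from 145 to 177 counts, and 1.06, 1.21, 1.95 and 2.31 CPM with IL-4/IL-13, from 19 to 38 counts. All cytokine libraries lay below all naive libraries, with a log2 change of -2.34 (SE 0.34, edgeR adjusted p = 1.5e-06), or -2.33 without naive mouse 2. Its coefficient of variation was 36.5% with IL-4/IL-13 and 3.87% in naive cells.

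**Figure D2:**
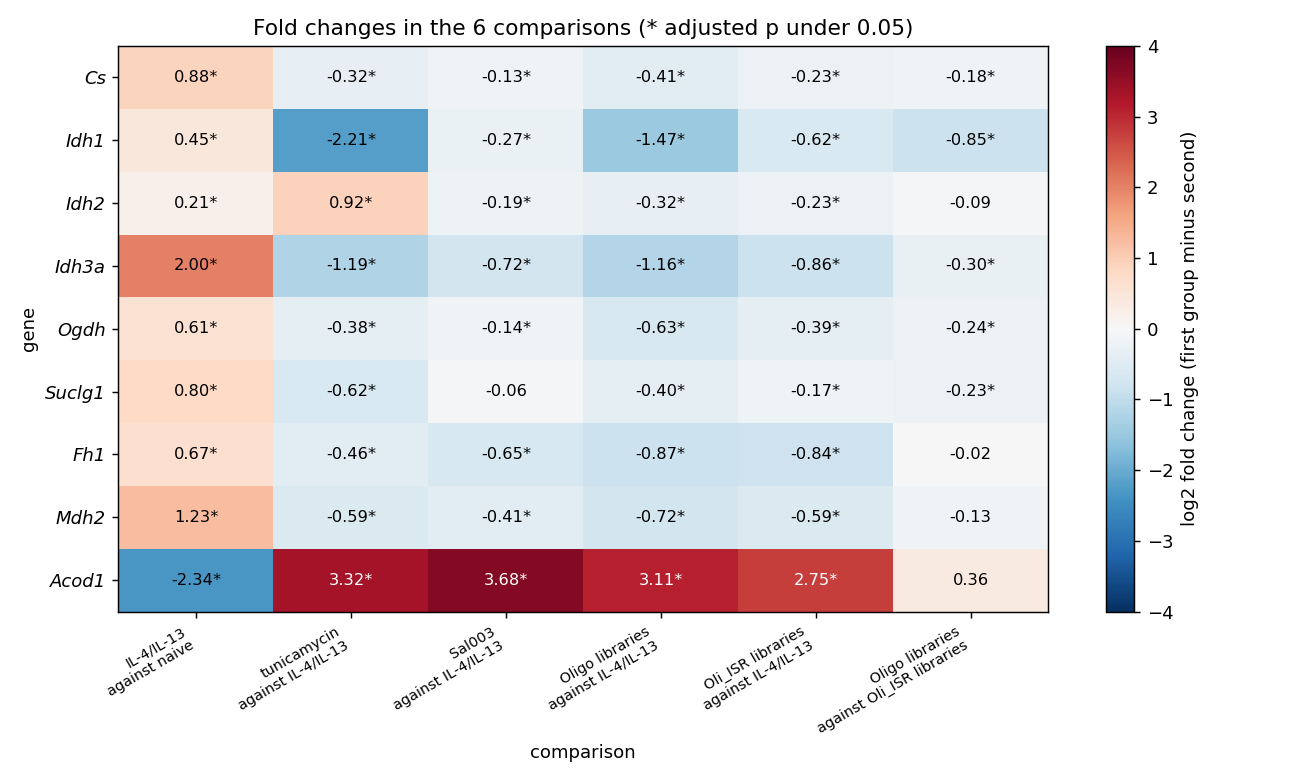
Log2 fold change (colour and printed value, first group minus second) of the 9 genes (vertical) in the 6 comparisons (horizontal), with an asterisk where the adjusted p of edgeR is under 0.05. The 8 enzymes are positive in the first column and Acod1 negative, with the signs exchanged in the next 4 columns except for Idh2 with tunicamycin.

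The 4 inhibitor groups were each compared with the same IL-4/IL-13 libraries, so the comparisons share their reference. In each of them, most of the enzymes were lower and Acod1 was higher than with the cytokines alone.

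With tunicamycin, 7 of the 9 members were called lower by the quasi-likelihood test of edgeR with Benjamini-Hochberg adjustment, against 37.6% of all genes tested, and 2 were called higher (Idh2 and Acod1), against 38.7%. The 2.5-fold rule kept Idh1 and Acod1, 2 members, against 22.6% of all genes. The median log2 change of the 8 enzymes was -0.53 and that of all genes 0.0066. Idh1, the cytosolic enzyme, measured 127, 119, 127 and 126 CPM with tunicamycin, below every naive library and every IL-4/IL-13 library. It fell by 2.21 on the log2 scale (SE 0.053, edgeR adjusted p = 8.3e-22), to 125 ± 3.82 CPM (SD, n = 4).

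Idh2, the mitochondrial enzyme, moved opposite to Idh1. It measured 127, 116, 119 and 114 CPM with tunicamycin, all above the highest value of any other group, 65.6 CPM. The log2 change was 0.92 (SE 0.068, edgeR adjusted p = 5.3e-12). Zfp710, whose exons overlap those of Idh2 on the opposite strand, went from 446 CPM with the cytokines to 136 CPM with tunicamycin. These levels cover the whole of Zfp710, and the part of the shared stretch in the Idh2 counts was not tested.

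Idh3a measured 34.4, 38.2, 37.5 and 36.1 CPM with tunicamycin, between the naive and the IL-4/IL-13 libraries with no overlap with either group, and fell by 1.19 on the log2 scale against IL-4/IL-13 (SE 0.055, edgeR adjusted p = 5.1e-16). The other 5 enzymes fell by less. Suclg1 was at 50.2 to 53.3 CPM, with a log2 change of -0.62, and Mdh2 at 151 to 159 CPM, with -0.59. Fh1 was at 50 to 54.4 CPM, with -0.46, Ogdh at 174 to 181 CPM, with -0.38, and Cs at 241 to 254 CPM, with -0.32. Their edgeR adjusted p-values ranged from 3.3e-11 for Suclg1 to 2.4e-06 for Fh1, and no group overlapped the cytokine libraries.

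Acod1 measured 12.3, 17.4, 16.2 and 18.7 CPM with tunicamycin. Every library lay above every naive library, and the log2 change against IL-4/IL-13 was 3.32 (SE 0.32, edgeR adjusted p = 7.2e-10).

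With Sal003, 7 of the 9 members were called lower, against 24.6% of all genes tested, and 1 higher (Acod1), against 25.9%, by the same test. The 2.5-fold rule kept Acod1 alone, 1 member, against 7.71% of all genes. The median log2 change of the 8 enzymes was -0.23, and that of all genes 0.0042. Idh3a measured 50.6, 51.5, 53 and 46.4 CPM, below every IL-4/IL-13 library and above every naive one (log2 change -0.72, SE 0.054, edgeR adjusted p = 4.2e-11). Fh1 measured 44.4, 45.3, 47.7 and 42.3 CPM, within the range of the naive libraries and below all IL-4/IL-13 libraries (log2 change -0.65, SE 0.072, edgeR adjusted p = 3.5e-08). Mdh2 was at 172 to 178 CPM (log2 change -0.41, edgeR adjusted p = 2.4e-06). Idh1 was at 435 to 523 CPM (log2 change -0.27, edgeR adjusted p = 8.7e-05).

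The smallest changes with Sal003 depended on single mice. Idh2 (51.2 to 60.5 CPM, log2 change -0.19, edgeR adjusted p = 0.026), Ogdh (202 to 220 CPM, -0.14, edgeR adjusted p = 0.026) and Cs (268 to 295 CPM, -0.13, edgeR adjusted p = 0.0083) were called lower. Without mouse 5 all these calls were lost, with edgeR adjusted p of 0.11, 0.15 and 0.064, and the number of members called lower was 4 in place of 7. The call of Ogdh was also lost without mouse 1 (0.059), without the Sal003 library of mouse 1, 2 or 5 (0.052, 0.058 and 0.079) and without the IL-4/IL-13 library of mouse 4 (0.08). That of Idh2 was also lost without mouse 4 (0.067), without the IL-4/IL-13 library of mouse 1 or 2 (0.066 and 0.06) and without the Sal003 library of mouse 2 or 5 (0.078 and 0.11). Suclg1, at 74.3 to 78.4 CPM, was not called: its log2 change was -0.059, with a 95% interval of -0.16 to 0.045 and edgeR adjusted p = 0.34.

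Acod1 measured 19.1, 18.9, 13.9 and 30.9 CPM with Sal003, where the library of mouse 5 was the highest of all 24 and that of mouse 4 the lowest of its group. All 4 libraries lay above the naive and the IL-4/IL-13 libraries, and the log2 change against IL-4/IL-13 was 3.68 (SE 0.31, edgeR adjusted p = 3.5e-10).

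In the Oligo libraries, 8 of the 9 members were called lower than with IL-4/IL-13 alone, against 32.2% of all genes tested, and 1 higher (Acod1), against 34%, by the same test. The 2.5-fold rule kept Idh1 and Acod1, 2 members, against 12.7% of all genes. The 8 enzymes had a median log2 change of -0.67, where that of all genes was 0.006. Idh1 measured 214, 204, 208 and 207 CPM, below all naive and all IL-4/IL-13 libraries, with a log2 change of -1.47 (SE 0.052, edgeR adjusted p = 6.1e-18). Idh3a measured 36.3, 36.2, 38.9 and 37.6 CPM, again between the naive and the IL-4/IL-13 libraries, with a log2 change of -1.16 (SE 0.055, edgeR adjusted p = 2.2e-15).

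Fh1 measured 38.8, 36.6, 39.8 and 39.6 CPM in the Oligo libraries, far below the IL-4/IL-13 libraries and overlapping the naive ones (log2 change -0.87, SE 0.072, edgeR adjusted p = 1e-10). Mdh2 was at 137 to 145 CPM (log2 change -0.72), Ogdh at 147 to 154 CPM (-0.63), Cs at 224 to 235 CPM (-0.41), Suclg1 at 59.3 to 62.5 CPM (-0.40) and Idh2 at 48.4 to 52.3 CPM (-0.32). None of these overlapped the IL-4/IL-13 libraries, and edgeR adjusted p ranged from 7.8e-11 for Ogdh to 0.00024 for Idh2. Acod1 measured 10.9, 14.2, 11.1 and 19.7 CPM, all above the naive libraries, with a log2 change of 3.11 against IL-4/IL-13 (SE 0.32, edgeR adjusted p = 4.6e-09).

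In the Oli_ISR libraries, the same test called 8 members lower than with IL-4/IL-13 alone, against 26.4% of all genes tested, and 1 higher (Acod1), against 27.9%. The 2.5-fold rule kept Acod1 alone, 1 member, against 7.96% of all genes. The median log2 change of the 8 enzymes was -0.49 and that of all genes 0.0026. Idh3a measured 51.6, 44, 45.3 and 42.2 CPM (log2 change -0.86, SE 0.055, edgeR adjusted p = 1.4e-12). Fh1 measured 43.6, 37.3, 41.4 and 35.3 CPM (log2 change -0.84, SE 0.072, edgeR adjusted p = 3.6e-10). All libraries of both genes lay below the IL-4/IL-13 libraries.

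Idh1 measured 383, 357, 406 and 357 CPM in the Oli_ISR libraries, partly within the naive range, with a log2 change of -0.62 against IL-4/IL-13 (SE 0.051, edgeR adjusted p = 1.8e-10). Mdh2 was at 147 to 160 CPM (log2 change -0.59) and Ogdh at 174 to 180 CPM (-0.39). Cs was at 254 to 276 CPM (-0.23), Idh2 at 51.2 to 56.5 CPM (-0.23) and Suclg1 at 68.8 to 76.6 CPM (-0.17). The call of Suclg1 (edgeR adjusted p = 0.006) was lost without mouse 4 (0.069). Acod1 measured 6.55, 15.5, 8.43 and 12.9 CPM, which spans the naive libraries, with a log2 change of 2.75 against IL-4/IL-13 (SE 0.33, edgeR adjusted p = 1e-07).

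Between the oligomycin groups, the Oligo libraries were lower than the Oli_ISR libraries in 5 of the 9 members, against 21.3% of all genes tested, and higher in 0, against 19.9%, by the quasi-likelihood test of edgeR with Benjamini-Hochberg adjustment. DESeq2 also called 0 higher, and 0 had an unadjusted p under 0.05 with a positive change. No member reached 2.5-fold, against 2.62% of all genes. Idh1 differed most, at 204 to 214 CPM against 357 to 406 CPM, with a log2 change of -0.85 (SE 0.051, edgeR adjusted p = 1.9e-12). Idh3a (-0.30), Ogdh (-0.24), Suclg1 (-0.23) and Cs (-0.18) were also lower, with edgeR adjusted p from 0.00013 for Idh3a to 0.00065 for Cs.

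Mdh2 was not called between these groups (log2 change -0.13, 95% interval -0.26 to -0.005, edgeR adjusted p = 0.085), although it was without mouse 2 (edgeR adjusted p = 0.00071). Idh2 (-0.089, interval -0.24 to 0.057) and Fh1 (-0.023, interval -0.18 to 0.13) were not called either, with edgeR adjusted p of 0.33 and 0.84. For Acod1 the log2 change was 0.36 with an interval of -0.14 to 0.86, so that a difference of either sign lies within the error (edgeR adjusted p = 0.25). Its groups overlapped, and its coefficient of variation was 29.5% in the Oligo and 37.6% in the Oli_ISR libraries.

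The 6 groups were ordered by mean level for each gene. Of the 45 pairs of neighbouring groups over the 9 members, 26 differed at an adjusted p under 0.05, against 31.9% of such pairs over all genes tested. For Idh1 all 5 neighbouring pairs differed, in the order IL-4/IL-13, Sal003, naive, Oli_ISR, Oligo and tunicamycin. For Idh2 tunicamycin was followed by IL-4/IL-13 and then Sal003, naive, Oli_ISR and Oligo, among which no neighbours differed. For Acod1 the order was Sal003, tunicamycin, Oligo, Oli_ISR, naive and IL-4/IL-13, and only the neighbours naive and IL-4/IL-13 differed.

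Idh3a, Cs and Mdh2 were all highest with IL-4/IL-13, followed by Sal003 and the Oli_ISR libraries, and lowest in naive cells. The Sal003 and Oli_ISR neighbours did not differ for Idh3a (edgeR adjusted p = 0.083) or Cs (0.074) and did for Mdh2 (0.043). The Oligo and tunicamycin neighbours did not differ for Idh3a (0.7), Cs (0.053) or Mdh2 (0.082), and neither did the Oli_ISR and tunicamycin neighbours for Mdh2 (0.89). Suclg1 had the order IL-4/IL-13, Sal003, Oli_ISR, Oligo, tunicamycin and naive, with no difference within the leading pairs of neighbours (edgeR adjusted p = 0.34 and 0.14). Ogdh had the order IL-4/IL-13, Sal003, tunicamycin, Oli_ISR, naive and Oligo, where tunicamycin and Oli_ISR (0.88) and naive and Oligo (0.75) did not differ. Fh1 had the order IL-4/IL-13, tunicamycin, Sal003, naive, Oli_ISR and Oligo, where Sal003 and naive (0.79) and both oligomycin groups (0.84) did not differ.

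Each inhibitor group was also compared with naive cells. With tunicamycin, 7 of the 8 enzymes were called higher than in naive cells and Idh1 was lower (log2 change -1.75, edgeR adjusted p = 7e-20), and all 9 members were called where 77.6% of all genes were. With Sal003, 6 of the 8 were higher and none lower, and 7 of 9 members were called where 62.5% of all genes were. The Oligo libraries had 4 enzymes higher (Cs, Idh3a, Suclg1 and Mdh2) and 2 lower (Idh1 and Fh1), with 7 of 9 members called where 71% of all genes were. The Oli_ISR libraries had 5 higher and 2 lower, with 7 of 9 called where 63.8% of all genes were. Acod1 was higher than in naive cells with Sal003 (log2 change 1.34), tunicamycin (0.98) and in the Oligo libraries (0.77), with edgeR adjusted p of 3.9e-05, 0.00093 and 0.008, and was not called in the Oli_ISR libraries (0.41, edgeR adjusted p = 0.16). The lower level of Fh1 rested on the naive library of mouse 2. In the Oligo libraries its log2 change against naive cells was -0.19 (edgeR adjusted p = 0.023), lower in 3 of 4 mice, and in the Oli_ISR libraries it was -0.17 (edgeR adjusted p = 0.049), and both groups overlapped the naive one. Without that library the changes were -0.093 and -0.078, and neither was called (edgeR adjusted p = 0.2 and 0.3). Idh2 with Sal003, at 0.024 and not called, was then called at 0.14 (edgeR adjusted p = 0.034), and with tunicamycin the changes of Fh1 and Suclg1 went from 0.21 to 0.34 and from 0.18 to 0.28.

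Among the inhibitor groups, 8 of 9 members differed between Sal003 and tunicamycin (71.9% of all genes), 5 between the Oligo libraries and tunicamycin (63.5%), 7 between the Oli_ISR libraries and tunicamycin (71.1%), 8 between the Oligo libraries and Sal003 (51.5%) and 4 between the Oli_ISR libraries and Sal003 (18.5%). Idh1, Ogdh, Mdh2 and Acod1 were the members that differed in the last of these, all lower in the Oli_ISR libraries.

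The balance of the NADP-dependent enzymes was taken within each library, which removes the library scaling. Divided by the length of the canonical transcript, Idh1 exceeded Idh2 4.6, 4.75, 5.13 and 5.02 times in the IL-4/IL-13 libraries, and 4.31, 3.43, 4.51 and 4.42 times in the naive ones. With tunicamycin the ratio was 0.532, 0.543, 0.567 and 0.583, below equality per canonical length in every tunicamycin library and in no other library. That crossing depends on the lengths, 3296 bases for Idh1 and 1748 for Idh2. All exons, over which reads were counted, cover 6666 and 8475 bases. Raw counts with tunicamycin were 2247 to 2503 for Idh1 and 2101 to 2464 for Idh2, with Idh1 the larger in each library. Changes of the ratio between groups do not depend on the lengths. The ratio was 2.34, 2.15, 2.22 and 2.1 in the Oligo libraries, 3.8, 3.7, 3.81 and 3.63 in the Oli_ISR libraries and 4.22, 4.82, 4.94 and 4.51 with Sal003.

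Against IL-4/IL-13 alone, the mean log2 ratio changed by -3.13 with tunicamycin, by -1.15 in the Oligo libraries and by -0.38 in the Oli_ISR libraries, in 4 of 4 mice each. The two-sided exact permutation test gave p = 0.0286 for each, the smallest value that 4 against 4 libraries allow (0.0343 after Benjamini-Hochberg adjustment over 6 comparisons). The same p-values were obtained for IL-4/IL-13 against naive cells (0.23) and for the Oligo against the Oli_ISR libraries (-0.76). Paired within mice, the exact sign-flip permutation test gave p = 0.125 for each of these 5 comparisons, the smallest value that 4 mice allow. Without the naive library of mouse 2, which had the lowest naive ratio, the change with IL-4/IL-13 was 0.14, over 1.5 times smaller, with an exact permutation p of 0.0571, the smallest that 4 against 3 libraries allow. With Sal003 the change was -0.078, in 3 of 4 mice, with an exact permutation p of 0.2571. The ratio also rests on the Idh2 counts, which are uncertain in the stretches shared with Zfp710.

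**Figure D3:**
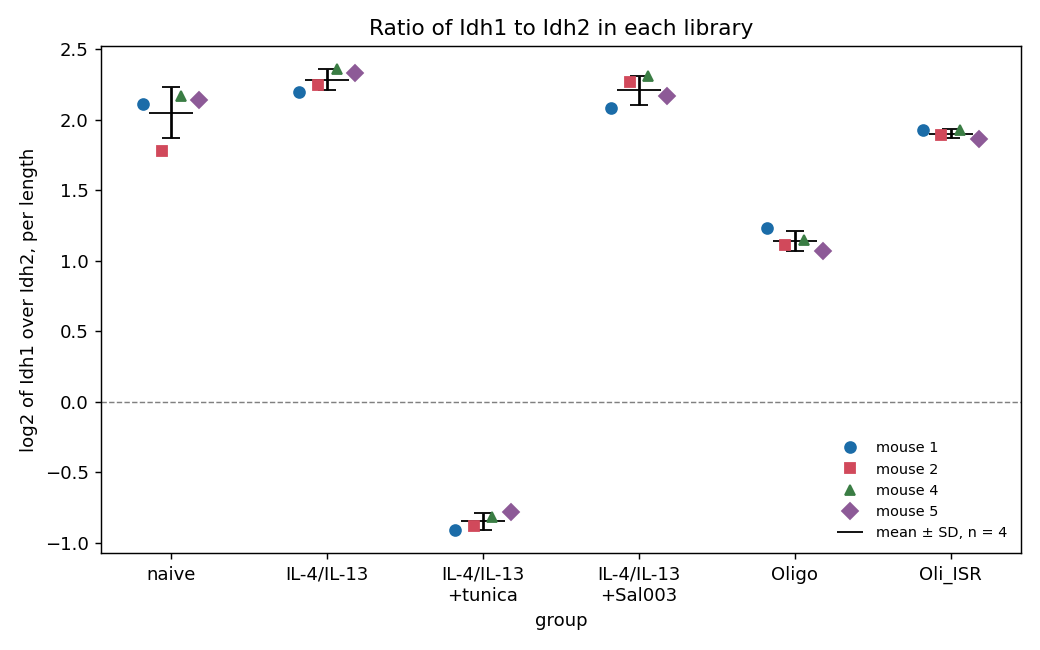
Log2 of the ratio of Idh1 to Idh2, each divided by transcript length (vertical axis), for each library in the 6 groups (horizontal axis), with symbols for the mice and bars for mean ± SD of 4 libraries. The dashed line marks equal levels per base of canonical transcript, and only the tunicamycin libraries, with ratios of 0.532 to 0.583, lie below it. Where the line falls depends on the lengths used.

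Levels of different genes were compared per kilobase of canonical transcript, a choice of length on which their order depends. With IL-4/IL-13, Idh1 had the highest level of the 9, at 175 CPM per kilobase, followed by Mdh2 (155), Cs (104), Suclg1 (52.5), Idh2 (35.9), Ogdh (34), Idh3a (32.2) and Fh1 (13.3), and Acod1 was the lowest, at 0.622. With tunicamycin, Mdh2 (103), Cs (83.4) and Idh2 (68.1) exceeded Idh1 (37.9). Acod1 reached its highest level per kilobase with Sal003, at 7.89, close to the 8.49 of Fh1 in the same group.

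Across the 24 libraries, which fall into 6 groups, log2 levels of Cs, Idh3a, Ogdh, Suclg1 and Mdh2 varied together, with Pearson r from 0.72 to 0.97 over their 10 pairs. This set was named after its values were seen. Idh1 and Idh2 had r = -0.65, and Acod1 was negative with 7 of the enzymes, from -0.28 with Cs to -0.73 with Fh1, and 0.09 with Idh2. The points of such correlations share groups and mice, and they are given as a description. Among 10598 genes with a mean of at least 50 counts, the patterns most like those of the members had r = 0.996 for Selplg with Idh1, 0.981 for Oat with Idh2, 0.983 for Atp5pb, a subunit of ATP synthase, with Mdh2, and 0.98 for Miga2 with Idh3a. Mdh2 and Idh3a were each second in the other's order (r = 0.971). The next ones were Ctdnep1 with Suclg1 (0.979), Rasgrp1 with Cs (0.976), Nup107 with Fh1 (0.959), Sf3a1 with Ogdh (0.947) and H2-M3 with Acod1 (0.926).

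Of 43 further genes around the cycle, in 5 lists chosen with earlier results of these data known, 41 were tested. Percentages in brackets are the shares of all genes tested, higher and lower. With IL-4/IL-13, 28 of the 41 were called higher and 8 lower than in naive cells (30.1% and 30.4%). Against IL-4/IL-13 alone, 14 were higher and 22 lower with tunicamycin (38.7% and 37.6%), and 7 and 21 with Sal003 (25.9% and 24.6%). The counts were 6 and 26 in the Oligo libraries (34% and 32.2%), and 5 and 21 in the Oli_ISR libraries (27.9% and 26.4%). Between the oligomycin groups, 3 were higher and 15 lower in the Oligo libraries (19.9% and 21.3%).

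**Figure D4:**
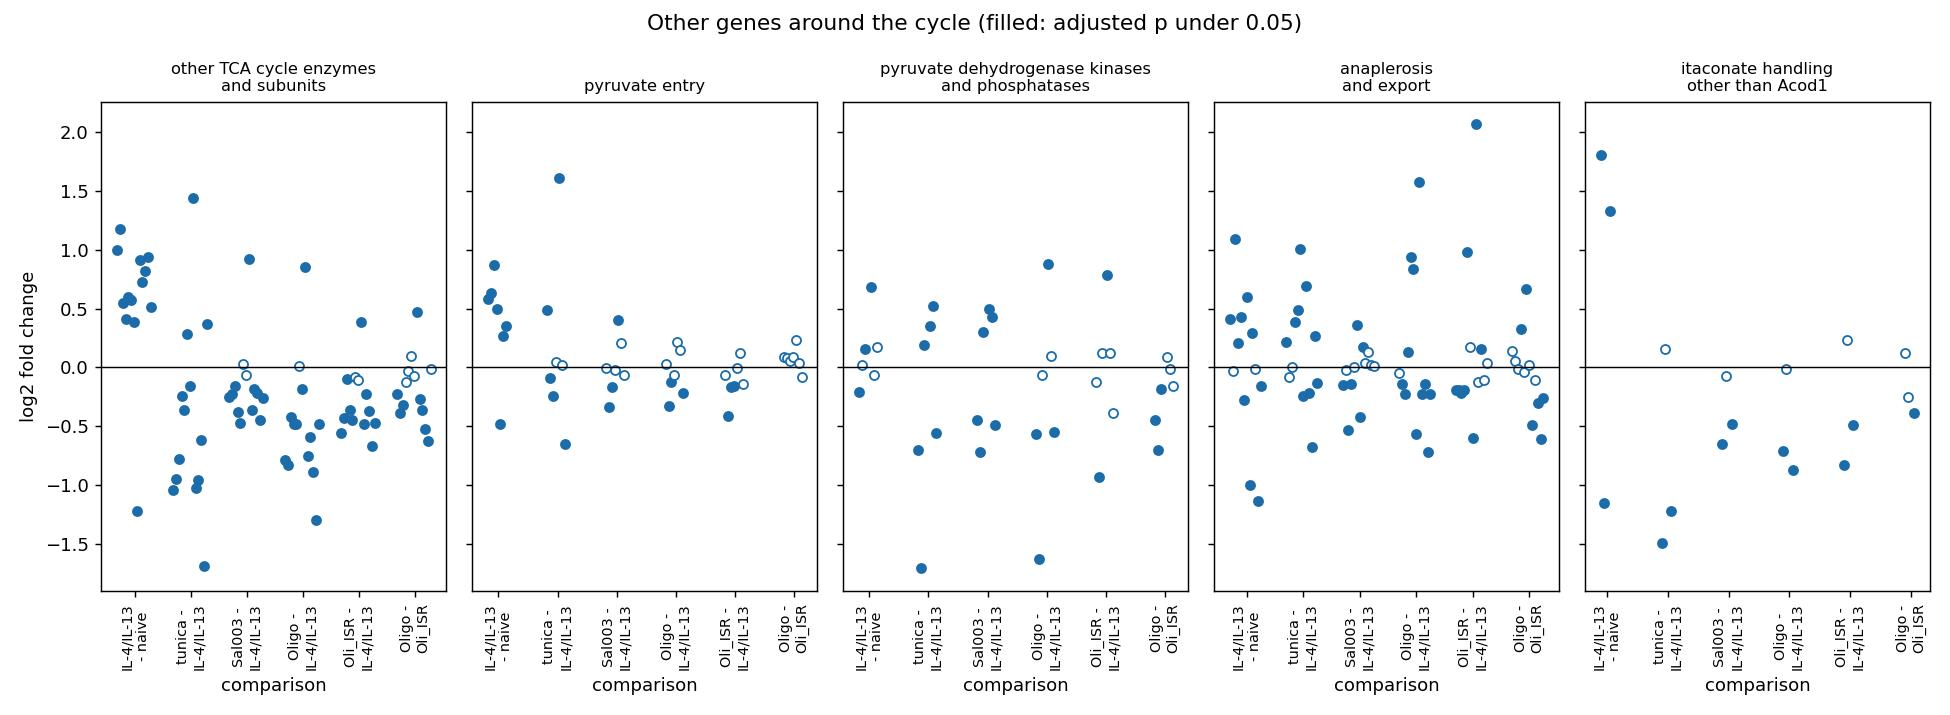
Log2 fold change (vertical axis) of each tested gene of the 5 wider lists (panels) in the 6 comparisons (horizontal axis, first group minus second), filled where the adjusted p of edgeR is under 0.05. In the panel of other TCA cycle enzymes, 12 of 13 genes are called higher in the IL-4/IL-13 comparison, against 30.1% of all genes tested. In the comparisons of each inhibitor group with IL-4/IL-13, 10 or 11 of 13 are called lower, against 24.6% to 37.6% of all genes.

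All 13 other TCA cycle enzymes and subunits were tested. With IL-4/IL-13, 12 were called higher and 1 lower than in naive cells, against 30.1% and 30.4% of all genes. Their median log2 change was 0.60. Aco1, the cytosolic aconitase, rose from 77.3 to 155 CPM (log2 change 1.00, edgeR adjusted p = 1.8e-14). Suclg2, the GTP-specific beta subunit that pairs with Suclg1, was the 1 that fell, from 15.9 to 6.78 CPM (-1.22, edgeR adjusted p = 8e-13).

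Tunicamycin lowered 10 of these 13 and raised 3, against 37.6% and 38.7% of all genes, and the median of the 13 was -0.62. Sdhd, a membrane anchor of succinate dehydrogenase, went from 206 to 63.7 CPM (log2 change -1.69), Aco1 from 155 to 75.2 CPM (-1.04) and Sdha, the flavoprotein subunit, from 395 to 193 CPM (-1.03), while Suclg2 went from 6.78 to 18.4 CPM (1.44). Sal003 lowered 10 and raised 1, against 24.6% and 25.9% of all genes (median of the 13, -0.23). In the Oligo libraries 11 were lower and 1 higher, against 32.2% and 34% (median of the 13, -0.48), and Sdhd was at 83.4 CPM (-1.30, edgeR adjusted p = 6.7e-17). In the Oli_ISR libraries 10 were lower and 1 higher, against 26.4% and 27.9% (median of the 13, -0.37). Of the Suclg2 transcript 38% is near identical to Gm15163, so its count is less certain.

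Among 7 genes of pyruvate entry, 6 were higher with IL-4/IL-13 and 1 lower, against 30.1% and 30.4% of all genes. Against IL-4/IL-13 alone, 2 were higher and 3 lower with tunicamycin (38.7% and 37.6% of all genes), 1 and 2 with Sal003 (25.9% and 24.6%), 0 and 3 in the Oligo libraries (34% and 32.2%) and 0 and 3 in the Oli_ISR libraries (27.9% and 26.4%). Pcx, pyruvate carboxylase, was the only one to pass 2-fold, at 1.93 CPM with IL-4/IL-13 and 5.93 CPM with tunicamycin (log2 change 1.61, edgeR adjusted p = 7.2e-11). Of 6 tested kinases and phosphatases of pyruvate dehydrogenase, Pdk2, a kinase that restrains the complex, fell from 26.8 CPM to 8.15 CPM with tunicamycin (-1.71, edgeR adjusted p = 1.7e-16) and to 8.64 CPM in the Oligo libraries (-1.63, edgeR adjusted p = 1.1e-15). Opposite-strand genes overlap 33.9% of the Pdk2 exons.

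Of 12 genes of anaplerosis and export, Pck2, the mitochondrial phosphoenolpyruvate carboxykinase, changed most in both oligomycin groups against IL-4/IL-13. It fell with IL-4/IL-13 from 58.2 to 29 CPM (edgeR adjusted p = 1.3e-13), and rose to 87.1 CPM in the Oligo libraries (1.58, edgeR adjusted p = 1.2e-17) and 122 CPM in the Oli_ISR libraries (2.07, edgeR adjusted p = 5e-19). Got1, the cytosolic aspartate aminotransferase, rose with the cytokines from 84.2 to 179 CPM (1.09), and Slc25a10, the dicarboxylate carrier, fell from 109 to 49.6 CPM (-1.14). Me1, the cytosolic malic enzyme, rose with tunicamycin from 9.37 to 18.9 CPM (1.01). Of its transcript 92.7% is near identical to other genes, among them Rwdd2a, which overlaps it on the opposite strand.

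Of the genes that handle itaconate and related acids, 3 of 4 were tested. Clybl, the citramalyl-CoA lyase of itaconate breakdown, rose with IL-4/IL-13 from 4.83 to 17 CPM (log2 change 1.81, edgeR adjusted p = 7.5e-14) and Auh, methylglutaconyl-CoA hydratase, from 27.6 to 69.2 CPM (1.33, edgeR adjusted p = 2.3e-16), opposite to Acod1. With tunicamycin they fell to 6.03 CPM (-1.49) and 29.7 CPM (-1.22). In each of the other inhibitor groups 2 of the 3 were called lower than with IL-4/IL-13, against 24.6% (Sal003), 32.2% (Oligo) and 26.4% (Oli_ISR) of all genes. Sugct, a glutarate CoA-transferase, was low throughout, at 1.46 CPM in naive cells and 0.654 CPM with IL-4/IL-13 (-1.15, edgeR adjusted p = 0.0015).

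Acod1 was set beside 9 genes listed here as inflammatory. The authors count Il1b, Nos2 and Acod1 itself among the canonical genes raised by LPS with interferon-γ. They describe Il6 and Slc25a33 as responsive to LPS and as reported targets of ATF4, a transcription factor of the integrated stress response. They also report that oligomycin with IL-4/IL-13 engaged no proinflammatory program. Most of their markers of LPS with interferon-γ were not expressed there. Phosphorylation of the signalling proteins IκBα, JNK and IRF3 gave no sign of inflammatory signalling. The 9 genes here are a short chosen list and do not test that report. What drives the changes of the listed genes was not tested. With IL-4/IL-13, 7 of the 9 were called lower than in naive cells, against 30.4% of all genes, and none higher, against 30.1%. Cxcl10, an interferon-induced chemokine, went from 42.7 to 0.82 CPM (log2 change -5.71), Il1b from 15.7 to 0.502 CPM (-4.98) and Tnf from 19.3 to 6.11 CPM (-1.67). Slc25a33, a mitochondrial pyrimidine carrier, fell from 4.01 to 1.84 CPM (-1.12). Ptgs2 (-0.46) and Irf1 (-0.21) fell by less, and Il12b fell from 12 to 25 counts in naive libraries to 0 to 3 counts, at or under the floor of 3 counts, for which no fold is given. Il6 was at 0 to 5 counts in naive cells and 0 to 2 counts with IL-4/IL-13, and Nos2 at 2 to 7 and 0 to 3 counts.

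With tunicamycin, 7 of the 9 were called higher than with IL-4/IL-13, against 38.7% of all genes, and 1 lower, against 37.6%. Il6 reached 1670 to 2349 counts or 103 CPM, and Ptgs2, cyclooxygenase 2, went from 2.32 to 53 CPM (log2 change 4.52). Cxcl10 rose to 18.6 CPM (4.51), Slc25a33 to 35.8 CPM (4.29), Tnf to 16.7 CPM (1.47) and Il1b to 1.15 CPM (1.22), and Nos2 to 83 to 88 counts. Irf1, a transcription factor of interferon responses, fell from 133 to 56.8 CPM (-1.23).

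With Sal003, where the mean of Acod1 was highest, 4 of the 9 were called higher, against 25.9% of all genes, and none lower, against 24.6%. Irf1 rose to 230 CPM (log2 change 0.79, edgeR adjusted p = 1.9e-10) and Slc25a33 to 2.85 CPM (0.64), while Nos2 and Il6 reached 6 to 15 and 5 to 14 counts. Il1b (-0.93), Tnf (0.19), Ptgs2 (-0.19), Cxcl10 (1.21) and Il12b were not called. In the Oligo libraries 7 of the 9 were higher (34% of all genes) and none lower (32.2%), among them Il6 at 336 to 389 counts and Slc25a33 at 13 CPM (2.82), and in the Oli_ISR libraries 6 were higher (27.9%) and none lower (26.4%), with Il6 at 13 to 18 counts and Slc25a33 at 6.09 CPM (1.72). Il1b, at 0.464 and 0.343 CPM in these groups, was not called in either. Between the oligomycin groups Il6 was higher in the Oligo libraries by 4.48 on the log2 scale (edgeR adjusted p = 1.9e-16), Ptgs2 by 1.23 and Slc25a33 by 1.10, and Irf1 was lower by a log2 change of -0.24.

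**Figure D5:**
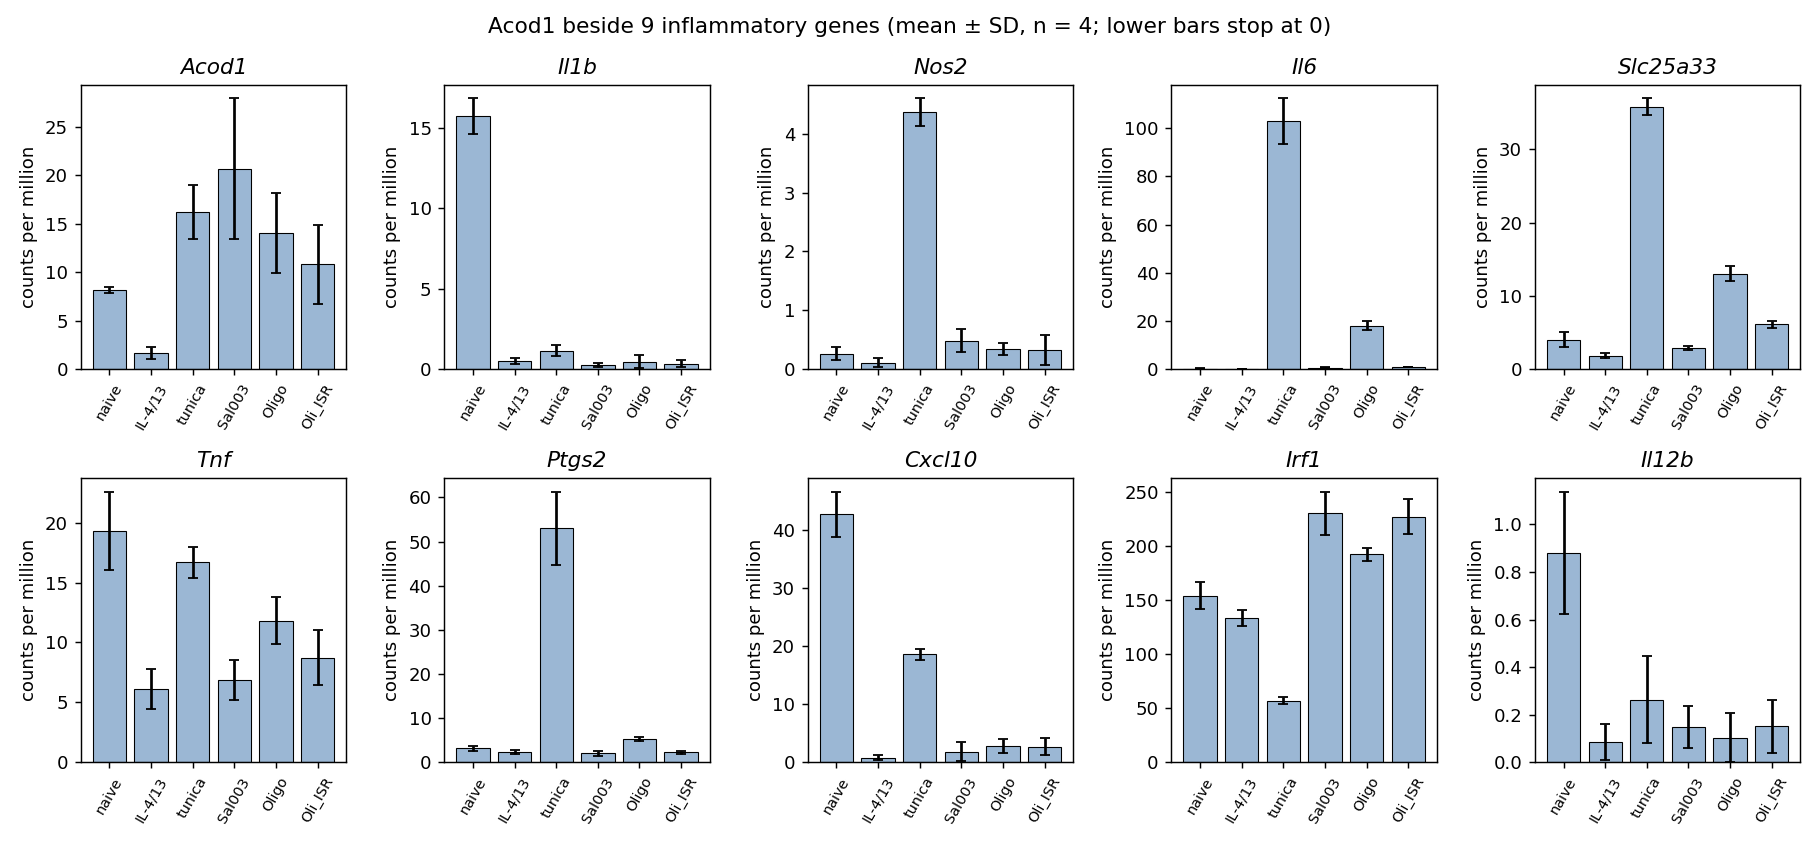
Mean level in CPM (bars from 0, error bars SD of 4 libraries, stopped at 0 below) of Acod1 and 9 inflammatory genes in the 6 groups, each panel on its own scale. Acod1 has its highest mean with Sal003 at 20.7 CPM, where Il6 is at 0.535 CPM and Il1b at 0.255 CPM, and Il6 reaches 103 CPM with tunicamycin.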

How the data were processed

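Polyadenylated RNA of 24 macrophage libraries was sequenced. The authors trimmed reads with Cutadapt 1.8, mapped them to GRCm39 by STAR 2.7 and obtained gene-wise totals from HTSeq 0.9.1, per the labels and the study's methods. The strand setting is not given in the sources used here. The deposited values are raw counts. The 5 lines that name no gene took 12.7% to 15.2% of all reads and did not enter any fit. A deposited TPM table was not used, because its column names do not match its columns. No column belonged to another sample.

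Counts were scaled by TMM and tested by edgeR 4.0.16 (limma 3.58.1, R 4.3.3) with 1 coefficient per group over all 24 libraries, and p-values were adjusted by the Benjamini-Hochberg method over the 13679 genes that passed the default expression filter. A call is an adjusted p under 0.05. The median biological coefficient of variation was 7.06%. Intervals are 95% intervals from the fit, with 18 residual degrees of freedom, and the floor of 3 counts covers counting error only. CPM values are counts divided by the TMM-scaled library size. Scripts were tested on simulated data. DESeq2 1.42.0, other scalings and filters, and leaving out each library or mouse were alternatives.

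The members and lists were chosen with earlier results of these data known. All members are named, as are genes of the wider lists with an adjusted p under 0.05 and a 2-fold change (at most 4 per list and comparison), all 9 inflammatory genes, and the genes most like each member by Pearson r of log2 CPM (prior count 2), of which the text gives the leading ones. A gene that met this rule is not reported here. Equal replicate numbers mark 1 mouse. Deviations of such libraries from their group's mean correlated with a median r of 0.32, over 0.1 in 55 of 60 pairs, against -0.09 and 18 of 180 pairs for different mice. The fit reported has no block for the mouse.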

Additional observations from a re-analysis of the deposited data

Results flagged for a closer look

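In 3 of 54 sets of 4 libraries, 1 gene in 1 group each, a library lay far from the other 3, where chance gives about 1 in 20, or 2.7 of 54. Mdh2 was at 121 CPM in the naive library of mouse 2, with the others at 91 to 93.2 CPM. Fh1 was at 54.4 CPM in the tunicamycin library of mouse 5, with the others at 50 to 50.4 CPM. Suclg1 was at 76.6 CPM in the Oli_ISR library of mouse 1, with the others at 68.8 to 69.8 CPM.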

How the results depend on the processing

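Over 54 changes of a member in a comparison, 1053 of 1080 values under the alternatives kept their direction and their side of the threshold, and 7 of the 54 had an alternative that changed a call or, for 1 of them, the direction only. The fit with a replicate block for the mouse, DESeq2 and its size factors, and a filter of 10 counts in every library (11017 genes) changed no call of a member. For the Idh1 to Idh2 ratio, the replicate block, an exact sign-flip test with a smallest p of 0.125, called none of the differences of 0.23 (IL-4/IL-13), -3.13 (tunicamycin), -1.15 (Oligo), -0.38 (Oli_ISR) and -0.76 (between the oligomycin groups). The first of these ranged from 0.14 to 0.28 when a mouse or the naive library of mouse 2 was left out. Without that library, chosen after seeing the data, Idh2 against naive cells went from -0.11 to 0.0031 in the Oligo libraries and from -0.02 to 0.086 in the Oli_ISR libraries, called in neither. With the replicate block, Fh1 was at -0.022 between the oligomycin groups, its smallest change. Without a filter (27890 genes), Cs and Ogdh with Sal003 had adjusted p of 0.1 and 0.086. Fh1 between the oligomycin groups, at -0.023, was 0.016 with upper-quartile scaling and from -0.082 to 0.034 when a mouse or library was left out. Members called lower with Sal003 ranged from 4 to 7 when a mouse or library was left out. The wider lists had 3 genes called higher between the oligomycin groups, 8 with upper-quartile scaling, which shifted the median of all genes by 0.038, and 5 in a fit of these groups alone, where Mdh2 was called (adjusted p = 0.022). Where not shown by construction, the cause was not tested. Requiring 2.5-fold left 1 member higher with IL-4/IL-13, 1 higher and 1 lower with tunicamycin, 1 lower in the Oligo libraries, and 0 lower with Sal003, in the Oli_ISR libraries and between the oligomycin groups, since it is stricter by construction. Acod1 rested on 19 to 38 counts with IL-4/IL-13.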
